A study of Homo sapiens with 9 samples.

Results

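Cholesterol synthesis, uptake and efflux was followed through 35 genes, taken by gene name from a list of the pathway's enzymes, regulators, receptors and transporters, among the 58735 genes in the tables. All 35 genes were measured and passed the filter on low counts in every comparison. They fall into 5 genes of sterol sensing and regulation, 7 enzymes of mevalonate and isoprenoid synthesis, 11 enzymes of squalene and sterol synthesis, 6 genes of uptake and intracellular transport, 4 efflux transporters and 2 esterification enzymes. The enzymes of both synthesis groups come to 18.

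Cells make cholesterol from acetyl-CoA through mevalonate, squalene and lanosterol, and transcription factors of the SREBP family switch this route on when sterols in the endoplasmic reticulum are low. When oxysterols accumulate, the nuclear receptor LXR raises the transporters that export sterols. Hepatocytes also place cholesterol and its esters, with triglyceride, on apolipoprotein B (apoB) for secretion, a step that needs the microsomal triglyceride transfer protein (MTP).

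RNA sequencing was done on Huh-7 cells, a human hepatoma line with a WT genotype in the labels, on Ako-3 cells, a Huh-7 clone with a knockout of APOB, which encodes apoB, and on Mko-3 cells, a Huh-7 clone with a knockout of MTTP, which encodes the large subunit of MTP. Each group had 3 libraries, labelled as biological replicates. All cells were grown with fetal bovine serum and, per the labels of all 9 libraries, then kept overnight without serum. Each knockout was a single clone, so an effect of the gene and a property of the clone cannot be told apart, and the comparisons of Ako-3 and Mko-3 with Huh-7 share the same control libraries.

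Total counts were 14638727 to 20179760 per library. The targeted transcripts were lower in the clones that carry their knockout, with log2 fold changes of -1.36 for APOB in Ako-3 and -2.88 for MTTP in Mko-3, against -0.16 and -0.05 for the other gene. The 8 hepatocyte markers were expressed in every group, with summed FPKM of 4861 to 5019.7 in Huh-7, 5558 to 5795 in Ako-3 and 4799.6 to 5013 in Mko-3. Single markers moved within that sum, with mean FPKM of 2547 for ALB, 637 for APOA1, 1050.2 for AFP and 64.0 for HNF4A in Huh-7, 2595 for ALB, 909.6 for APOA1, 1168 for AFP and 104 for HNF4A in Ako-3 and 1833 for ALB, 476 for APOA1, 1840.2 for AFP and 79.4 for HNF4A in Mko-3, and their part in the results was not tested. The other markers, TTR, SERPINA1, TF and FGB, had mean FPKM of 31.5, 439, 90.3 and 77.5 in Huh-7. In Ako-3 their means were 59.0, 595, 149 and 71.1, and in Mko-3 48.3, 430, 93.6 and 84.1. FPKM, the fragment count scaled by gene length and library size, is the deposited level and the one to compare between genes. Of 8 markers of other cell types, PTPRC, CD68, DCN, THY1 and LUM were at or near 0, and the summed level of the list was 10.4 to 11.8 in Huh-7, 14.4 to 15.3 in Ako-3 and 7.93 to 8.47 in Mko-3, most of it PECAM1, and its part in the results was not tested. Mitochondrial transcripts took 5.52% to 6.17% of the counts in Huh-7, 7.06% to 7.40% in Ako-3 and 5.75% to 5.82% in Mko-3, and leaving these genes out of the fits changed no call of a member. Fewer cells that express a gene and less RNA per cell cannot be told apart in these libraries.

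In Mko-3 most genes of the pathway were lower than in Huh-7. Of the 35 genes, 21 fell and 5 rose with an adjusted p (Benjamini-Hochberg, over every tested gene) no higher than 0.05 in the quasi-likelihood test of edgeR, where 27.1% of 15745 tested genes were lower and 26.9% higher. The sterol exporters ABCG5, ABCG8 and ABCG1 fell furthest and were the 3 members that also moved by 1 or more on the log2 scale, a pair of thresholds that 7.22% of genes passed on the lower side. With limma on log2(FPKM + 1), a scale that understates the change of low genes, ABCG5 and ABCG8 passed both thresholds and ABCG1 did not, at log2 fold changes of -1.47, -1.14 and -0.76. The median log2 fold change of the 35 genes was -0.28, against -0.01 over all tested genes. The libraries of Mko-3 and Huh-7 did not overlap for 22 of the 35 members on the lower side and 5 on the higher side. Over all tested genes these shares were 29.8% and 30.9%. Leaving out replicate 1 of Mko-3 left 3 members that rose.

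In Ako-3 the genes moved in both directions. Of the 35 genes, 11 rose and 7 fell, where 25.5% of 15787 tested genes were higher and 24.4% lower, and no member passed the threshold on p together with a log2 fold change of 1 in either direction, as 8.52% of all genes did. Libraries did not overlap for 8 of the 35 members on the higher side and 7 on the lower side, where the shares of all tested genes were 29.7% and 28%. The split of the members depended on the scaling, with 8 rising and 9 falling under upper-quartile factors. Without replicate 3 of Ako-3, 7 members rose, and with limma on log2 FPKM 8 rose and 5 fell, the calls of CYP51A1, PMVK, TM7SF2, INSIG1 and ABCG1 being lost.

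Set directly against Ako-3, Mko-3 had 28 of the 35 genes lower and 1, INSIG2, higher. Over all 15528 tested genes, 20.6% were lower and 21.1% higher. NPC1L1, ABCG5, ABCG8 and SOAT2 passed both thresholds on the lower side, as did 3.47% of all genes. The median log2 fold change was -0.29, against 0.005 over all genes. Libraries of the clones did not overlap for 28 of the 35 members on the lower side and 2 on the higher side. Over all tested genes these shares were 24.1% and 25.6%. With limma, or with all 9 libraries in 1 fit, the calls of NSDHL, LRP1, SCARB1 and NPC1 were lost and 24 members were lower, and with DESeq2 that of NPC1 was lost. With limma the rise of INSIG2 was lost as well.

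**Figure D1:**
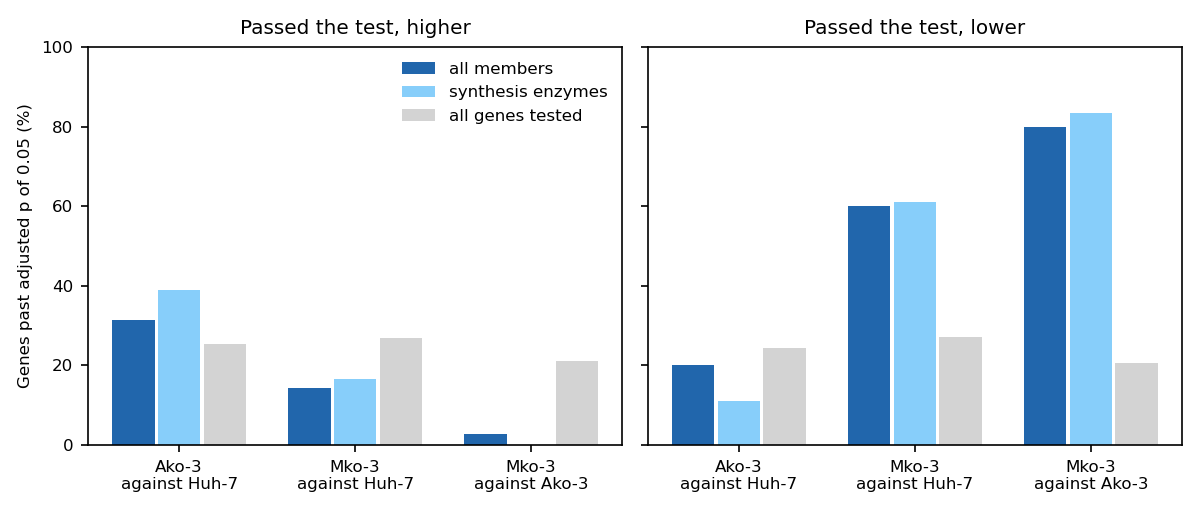
Percentage of genes past an adjusted p of 0.05, higher (left) and lower (right), in each of the 3 comparisons, for the 35 members, the 18 synthesis enzymes and all genes tested. On the lower side of both comparisons of Mko-3, the members stand at 60% and 80% and all genes at 27.1% and 20.6%.

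The calls against Huh-7 are given side by side for both clones, which share their control libraries. The share of all tested genes with each joint pattern was not counted, so these patterns are not read as particular to the pathway. ABCA1, CYP51A1, NSDHL and PMVK were higher in both clones, and ABCG1, INSIG1, MSMO1, NPC1, SREBF2 and STARD4 were lower in both. ABCG8, NPC1L1 and TM7SF2 rose in Ako-3 and fell in Mko-3. A further 12 genes fell in Mko-3 and did not pass in Ako-3, namely ABCG5, DHCR7, FDFT1, FDPS, HMGCS1, HSD17B7, IDI1, LRP1, LSS, MVD, SOAT2 and SQLE. ACAT2, EBP, MVK and SOAT1 rose in Ako-3 and did not pass in Mko-3, SC5D fell in Ako-3 and did not pass in Mko-3, and INSIG2 rose in Mko-3 and did not pass in Ako-3. MYLIP, NPC2, SCAP and SCARB1 passed in neither.

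Some calls with small log2 fold changes rested on single libraries. In Ako-3, the rise of CYP51A1 (0.21 to 0.26) missed the threshold without Ako-3 replicate 2 or 3 or Huh-7 replicate 1 or 3, that of TM7SF2 (0.15 to 0.23) without Ako-3 replicate 2 or 3 or Huh-7 replicate 2 or 3, and that of PMVK (0.26 to 0.29) without Ako-3 replicate 2 or 3 or Huh-7 replicate 3. The rise of SOAT1 (0.17 to 0.22) missed it without Ako-3 replicate 1 or 3 or Huh-7 replicate 1, and the fall of INSIG1 (-0.19 and -0.18) without Ako-3 replicate 1 or 3. FDPS (-0.18), SQLE (-0.16) and SCAP (0.17) passed without Huh-7 replicate 1, and MVD (0.18) passed without Huh-7 replicate 2.

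In Mko-3, the call of PMVK (0.19 to 0.25) was lost without Huh-7 replicate 3 or Mko-3 replicate 1 or 3, and that of FDFT1 (-0.12 to -0.18) without Huh-7 replicate 2 or Mko-3 replicate 2 or 3. INSIG2 (0.21) missed the threshold without Mko-3 replicate 1 and NPC1L1 (-0.24) without Mko-3 replicate 3. SC5D (-0.20) passed without Huh-7 replicate 1 and SCARB1 (-0.17) without Huh-7 replicate 2. Between the clones, INSIG2 (0.11) was lost without Ako-3 replicate 3, LRP1 (-0.08) without Ako-3 replicate 1, NPC1 (-0.09 to -0.12) without Ako-3 replicate 1 or Mko-3 replicate 1 or 2, and SCARB1 (-0.09 and -0.10) and NSDHL (-0.16) without replicate 2 of either clone, while SOAT1 (-0.15) passed without Ako-3 replicate 2.

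**Figure D2:**
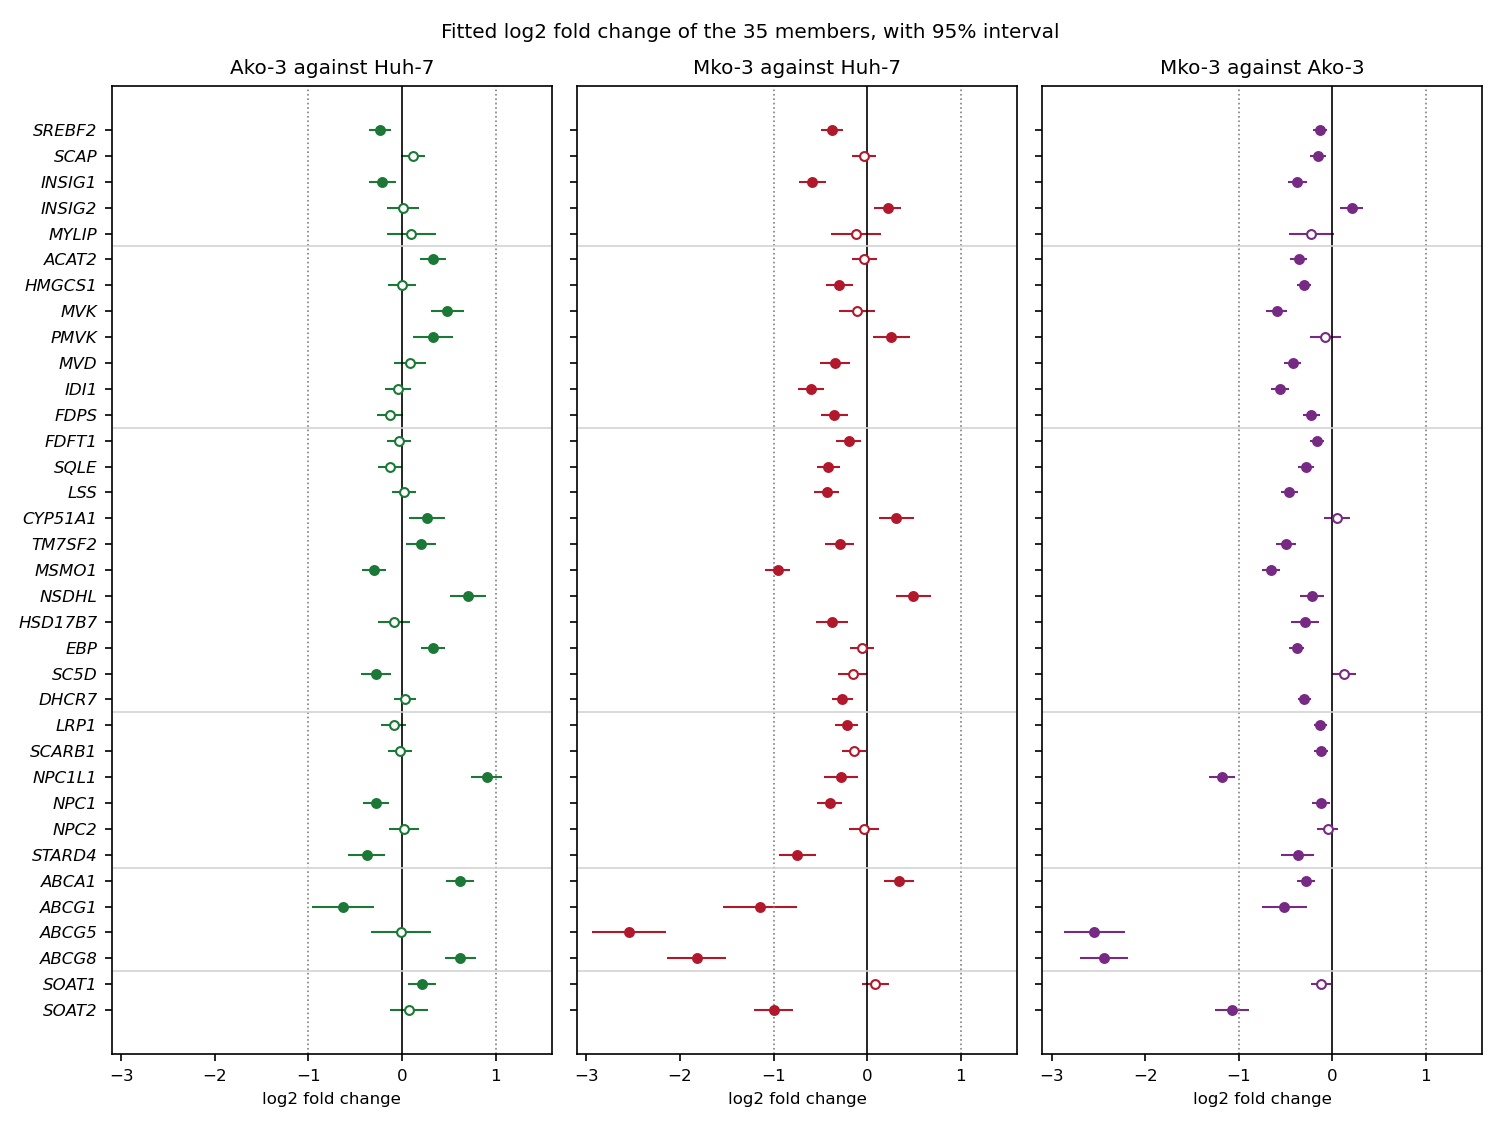
Fitted log2 fold change (horizontal axis) of each of the 35 members in the 3 comparisons, with its 95% interval. Filled points passed an adjusted p of 0.05, open points did not, dotted lines mark 1 and -1, and grey lines divide the role groups. ABCG5 and ABCG8 lie furthest to the left in both comparisons of Mko-3, at -2.55 and -1.82 against Huh-7.

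Among the 5 genes of sterol sensing and regulation, 2 fell and 3 did not pass in Ako-3, whereas 2 fell and 1 rose in Mko-3. In Ako-3, 40% were lower, beside 24.4% of all tested genes. In Mko-3, 40% were lower and 20% higher, beside 27.1% and 26.9%. SREBF2, the SREBP that drives the cholesterol genes, measured 89.0, 84.7 and 85.4 FPKM in the Huh-7 libraries, 74.4, 73.1 and 72.5 in Ako-3 and 67.3, 66.6 and 67.9 in Mko-3. All Ako-3 libraries were below all Huh-7 libraries, and all Mko-3 libraries were below both. The log2 fold change was -0.24, SE 0.06, adjusted p = 0.0014 in Ako-3 and -0.37, SE 0.06, adjusted p = 7.8e-06 in Mko-3. Between the clones the log2 fold change was -0.13, SE 0.04, adjusted p = 0.0024.

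INSIG1, which holds the SREBP and its escort in the endoplasmic reticulum and is itself a sterol-regulated SREBP target, measured 42.3, 45.1 and 38.5 FPKM in Huh-7, 35.5, 38.7 and 34.9 in Ako-3 and 26.6, 30.5 and 27.6 in Mko-3. The Mko-3 libraries were below all others, and 1 Ako-3 library lay within the Huh-7 range. INSIG1 fell in Ako-3 (log2 fold change -0.21, SE 0.07, adjusted p = 0.015) and in Mko-3 (log2 fold change -0.58, SE 0.07, adjusted p = 6.2e-07). Its relative INSIG2, which has the same retention role, rose in Mko-3 (log2 fold change 0.22, SE 0.07, adjusted p = 0.011) and stood at 0.01 (log2 fold change) in Ako-3. SCAP, the escort that carries SREBPs to the Golgi, and MYLIP, a ubiquitin ligase that marks lipoprotein receptors for degradation, did not pass against Huh-7, with log2 fold changes of 0.12 and 0.10 in Ako-3 and of -0.04 and -0.12 in Mko-3.

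A stretch upstream of SREBF2 is shown because it was the only member promoter of the 29 with a RefSeq window (GRCh38.p14, 250 bases before to 50 after the start site) that held the sterol regulatory element letters TCACNCCAC on either strand. These letters occur in 1.39% of 27305 genes with a window. In capitals are this element, at base -133 from the start site, and the NF-Y box CCAAT on the other strand, on the plus strand at chr22:41832947-41833005.

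SREBF2: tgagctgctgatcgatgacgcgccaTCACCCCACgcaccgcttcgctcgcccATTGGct

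The match is a description of letters and says nothing of binding. ABCG1, ACAT2, FDFT1, SOAT2, SQLE and SCARB1 have no window in the table.

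The 18 synthesis enzymes fell in the main in Mko-3, with 11 lower, 3 higher and 4 that did not pass against Huh-7, and a median log2 fold change of -0.28. That is 61.1% lower and 16.7% higher, beside 27.1% and 26.9% of all tested genes, whose median was -0.01. In Ako-3, 7 enzymes rose, 2 fell and 9 did not pass, with a median of 0.03, which was -0.02 under upper-quartile factors. These are 38.9% higher and 11.1% lower, beside 25.5% and 24.4% of all tested genes, whose median was -0.009. Against Ako-3, 15 enzymes were lower in Mko-3 and none rose, with a median of -0.30. The 83.3% lower and 0% higher stood beside 20.6% and 21.1% of all tested genes, whose median was 0.005. Huh-7 replicate 2 stood apart, with 17 of 18 enzymes above the Huh-7 mean and a median log2 difference from it of 0.09, and without it the Mko-3 median was -0.21.

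**Figure D3:**
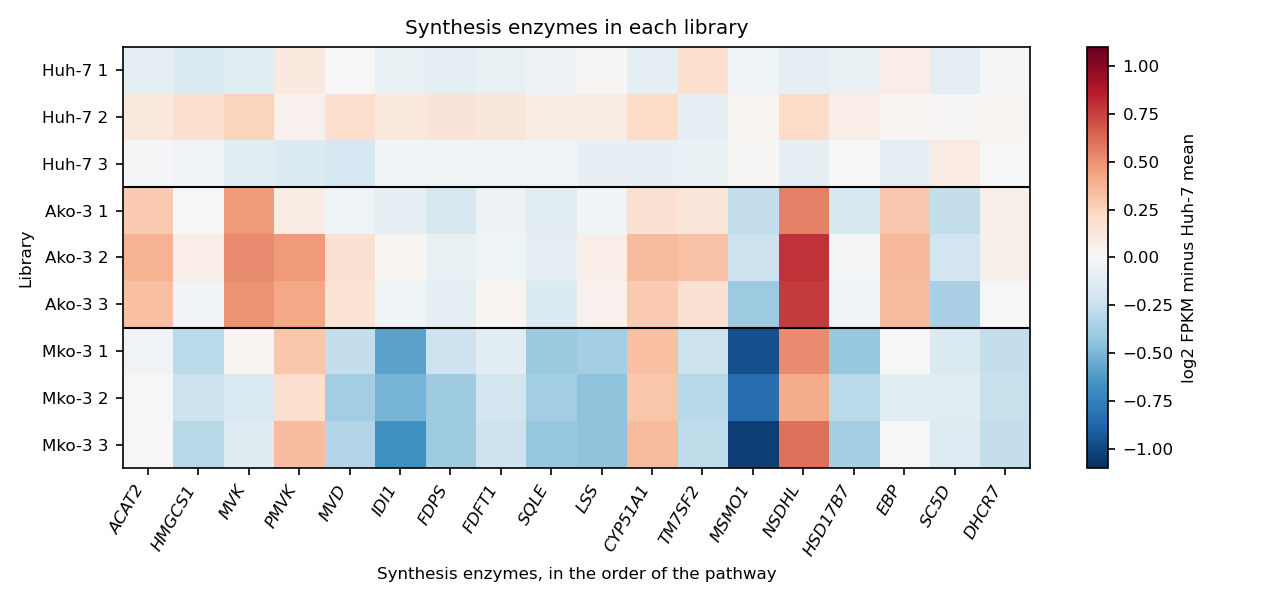
Log2 FPKM of the 18 synthesis enzymes (columns, in pathway order) in each of the 9 libraries (rows), minus the mean of the Huh-7 libraries. The median over the enzymes was -0.23 to -0.28 in the Mko-3 libraries and -0.01 to 0.08 in the Ako-3 libraries, and NSDHL is red in both clones while MSMO1 is the deepest blue in Mko-3.

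The members of mevalonate and isoprenoid synthesis begin with acetoacetyl-CoA and HMG-CoA formation by ACAT2 and HMGCS1. ACAT2 rose in Ako-3 (log2 fold change 0.33, SE 0.07, adjusted p = 0.00031) and stood at -0.03 (log2 fold change) in Mko-3. Its span overlaps those of TCP1 over 558 bp and of SOD2 over 2202 bp, both on the other strand. SOD2 had a mean of 0 counts in Huh-7. Reads within these stretches cannot be told apart without strand. HMGCS1 stood at 0.004 (log2 fold change) in Ako-3 and fell in Mko-3 (log2 fold change -0.30, SE 0.07, adjusted p = 0.0012), where the other 33 tested genes within 5 Mb had a median of -0.32. The kinase PMVK rose in both clones, with log2 fold changes of 0.33 and 0.26.

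MVK, the kinase that phosphorylates mevalonate, measured 9.99, 12.9 and 9.95 FPKM in Huh-7, 15.0, 15.6 and 15.3 in Ako-3 and 11.1, 9.65 and 9.90 in Mko-3. The Ako-3 libraries were above all others, and the Mko-3 libraries overlapped those of Huh-7. MVK rose in Ako-3 (log2 fold change 0.49, SE 0.08, adjusted p = 7.5e-05), stood at -0.11 (log2 fold change) in Mko-3 and was lower in Mko-3 than in Ako-3 (log2 fold change -0.59, SE 0.05, adjusted p = 3.3e-15). It overlaps MMAB on the other strand over 620 bp.

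IDI1, which interconverts the isoprenoid building blocks, measured 46.4, 53.0 and 48.0 FPKM in Huh-7, 46.0, 49.9 and 47.4 in Ako-3 and 32.7, 34.4 and 30.8 in Mko-3. The Mko-3 libraries were below all others, whereas those of Ako-3 overlapped those of Huh-7. The log2 fold change was -0.60, SE 0.07, adjusted p = 1.5e-07 in Mko-3 and -0.04 in Ako-3. The decarboxylase MVD and the farnesyl diphosphate synthase FDPS fell in Mko-3, with log2 fold changes of -0.34 and -0.35, and neither passed in Ako-3.

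In squalene and sterol synthesis, 7 of 11 enzymes fell and 2 rose in Mko-3, and 4 rose and 2 fell in Ako-3. In Mko-3, 63.6% were lower and 18.2% higher, beside 27.1% and 26.9% of all tested genes. In Ako-3, 36.4% were higher and 18.2% lower, beside 25.5% and 24.4%. MSMO1, which oxidises the C4 methyl groups of the sterol ring, measured 125, 132 and 129.9 FPKM in Huh-7, 107, 110.0 and 97.6 in Ako-3 and 66.0, 72.1 and 62.9 in Mko-3. The groups did not overlap, with Huh-7 highest and Mko-3 lowest. MSMO1 fell in Ako-3 (log2 fold change -0.30, SE 0.06, adjusted p = 0.00041) and in Mko-3 (log2 fold change -0.96, SE 0.06, adjusted p = 9.2e-11). The other 17 tested genes within 5 Mb of it on chromosome 4 had a median log2 fold change of -0.15 in Ako-3 and -0.32 in Mko-3, with 52.9% of them lower in Mko-3. The part of this region in the MSMO1 change was not tested.

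NSDHL, the decarboxylase that acts after MSMO1 on the same C4 position, changed the other way. It measured 16.6, 20.8 and 16.7 FPKM in Huh-7, 26.4, 31.2 and 30.6 in Ako-3 and 25.6, 23.7 and 27.3 in Mko-3, with both clones above every Huh-7 library. NSDHL rose in Ako-3 (log2 fold change 0.71, SE 0.09, adjusted p = 2.8e-06) and in Mko-3 (log2 fold change 0.49, SE 0.09, adjusted p = 8.8e-05). It was lower in Mko-3 than in Ako-3, at -0.21, SE 0.06, adjusted p = 0.0051, though the libraries of the clones overlapped. The other tested genes within 5 Mb of NSDHL, 74 in Ako-3 and 73 in Mko-3, had median log2 fold changes of 0.08 and 0.15. In Ako-3, 33.8% of them were higher and 16.2% lower, and in Mko-3 39.7% and 15.1%. Over all tested genes 25.5% and 26.9% were higher. The part of this region in the NSDHL change was not tested.

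Sequences upstream of this pair, which act in succession and differed in direction, are shown with each CCAAT box, on either strand, in capitals. Both lie on the plus strand of GRCh38.p14 and end before the gene's start in RefSeq and in the deposited table, MSMO1 at chr4:165327469-165327622 and NSDHL at chrX:152830863-152830966.

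MSMO1: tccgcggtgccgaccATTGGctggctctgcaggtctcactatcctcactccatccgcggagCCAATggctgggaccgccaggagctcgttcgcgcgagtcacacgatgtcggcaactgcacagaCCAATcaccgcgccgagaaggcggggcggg
NSDHL: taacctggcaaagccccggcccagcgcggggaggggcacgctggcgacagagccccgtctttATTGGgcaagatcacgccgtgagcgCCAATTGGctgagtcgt

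Each stretch holds 3 boxes, of 4 in the MSMO1 window and 5 in the NSDHL window, and an overlapping pair on opposite strands is counted as 2. A CCAAT box was found in 13 of 15 enzymes with a window, in 20 of all 29 members and in 39.7% of all genes, or 43% of the tested genes with a window. The GC box GGGCGG was found in 14 of the 15 enzymes and in 74.9% of tested genes.

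Of the remaining sterol enzymes, the squalene synthase FDFT1, the squalene epoxidase SQLE, the lanosterol synthase LSS, the ketosteroid reductase HSD17B7 and DHCR7, which reduces the last sterol precursor, fell in Mko-3, with log2 fold changes of -0.20, -0.41, -0.43, -0.37 and -0.27, and none of them passed in Ako-3. The other 35 tested genes within 5 Mb of SQLE had a median log2 fold change of -0.23 in Mko-3. Of these neighbours, 40% were lower and 11.4% higher, beside 27.1% and 26.9% of all tested genes, and their part was not tested. The reductase TM7SF2 rose in Ako-3 and fell in Mko-3, with log2 fold changes of 0.20 and -0.29. CYP51A1, the lanosterol demethylase, rose in both clones, with log2 fold changes of 0.26 and 0.31. The isomerase EBP rose in Ako-3 (log2 fold change 0.33, SE 0.06, adjusted p = 0.00013) and stood at -0.05 (log2 fold change) in Mko-3. The desaturase SC5D fell in Ako-3 (log2 fold change -0.28, SE 0.08, adjusted p = 0.0053) and stood at -0.15 (log2 fold change) in Mko-3, with an adjusted p of 0.084.

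By mean level per length, DHCR7 (184 ± 1.98 FPKM, mean ± SD, n = 3), EBP (149.9 ± 8.90), MSMO1 (129 ± 3.50) and HMGCS1 (114 ± 13.5) were the highest members in Huh-7. In that order MSMO1 and HMGCS1 overlapped between libraries. In Mko-3, MSMO1 ranked 7 at 67.0 ± 4.69 FPKM, and DHCR7 still ranked 1 at 154 ± 0.726. The lowest members in Huh-7 were ABCG5 (3.51 ± 0.802), ABCG1 (3.38 ± 0.858) and ABCG8 (3.14 ± 0.196), whose levels overlapped.

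Of the 6 genes of uptake and intracellular transport, 4 fell and none rose in Mko-3, while 1 rose and 2 fell in Ako-3. The 66.7% lower in Mko-3 stood beside 27.1% of all tested genes. In Ako-3, 16.7% were higher and 33.3% lower, beside 25.5% and 24.4% of all tested genes. NPC1L1, the sterol importer that ezetimibe blocks, measured 5.88, 6.30 and 5.63 FPKM in Huh-7, 11.6, 11.5 and 10.4 in Ako-3 and 5.02, 5.04 and 4.75 in Mko-3. The groups did not overlap, with Ako-3 highest and Mko-3 lowest. NPC1L1 rose 1.88-fold in Ako-3 (log2 fold change 0.91, SE 0.08, adjusted p = 1.2e-08) and fell in Mko-3 (log2 fold change -0.28, SE 0.09, adjusted p = 0.011). Between the clones it was 2.27-fold lower in Mko-3 (log2 fold change -1.18, SE 0.07, adjusted p = 7.3e-25).

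STARD4, a soluble carrier that moves sterols between membranes, measured 5.29, 5.84 and 5.79 FPKM in Huh-7, 4.81, 4.44 and 3.81 in Ako-3 and 3.17, 3.67 and 3.31 in Mko-3. The groups did not overlap, with Huh-7 highest. STARD4 fell in Ako-3 (log2 fold change -0.38, SE 0.10, adjusted p = 0.0024) and in Mko-3 (log2 fold change -0.75, SE 0.09, adjusted p = 9.2e-07). The other 30 tested genes within 5 Mb of it on chromosome 5 had medians of -0.48 and -0.34, and their part was not tested. The endosomal exporter NPC1 fell in both clones, with log2 fold changes of -0.28 and -0.40, and those of its partner NPC2 were 0.02 and -0.03. LRP1, an endocytic receptor for lipoprotein remnants, fell in Mko-3 (log2 fold change -0.22). On the other strand, the span of RMC1 overlaps that of NPC1 over 25624 bp, and that of STAT6 overlaps LRP1 over 3647 bp. The HDL receptor SCARB1 stood at -0.14 (log2 fold change) in Mko-3, with an adjusted p of 0.051.

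All 4 efflux transporters passed in Mko-3, where 3 fell and 1 rose, and in Ako-3 2 rose and 1 fell. In Mko-3, 75% were lower and 25% higher, beside 27.1% and 26.9% of all tested genes. In Ako-3, 50% were higher and 25% lower, beside 25.5% and 24.4%. ABCG5 and ABCG8 work as a heterodimer that pumps sterols into bile. ABCG5 measured 4.39, 2.82 and 3.33 FPKM in Huh-7, 3.57, 4.03 and 2.96 in Ako-3 and 0.649, 0.501 and 0.681 in Mko-3, from 307, 160 and 226 counts, 220, 299 and 192 counts and 43, 33 and 39 counts. The Mko-3 libraries lay far below all others, and the other groups overlapped. ABCG5 was 5.84-fold lower in Mko-3 than in Huh-7 (log2 fold change -2.55, SE 0.19, adjusted p = 5.3e-10) and 5.82-fold lower than in Ako-3 (log2 fold change -2.54, SE 0.16, adjusted p = 9.5e-23). In Ako-3 its log2 fold change was -0.01, with a 95% interval of -0.33 to 0.31.

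ABCG8 measured 3.37, 3.02 and 3.04 FPKM in Huh-7, 4.78, 5.05 and 4.75 in Ako-3 and 0.804, 1.19 and 0.682 in Mko-3. The groups did not overlap, with Ako-3 highest. ABCG8 was 3.53-fold lower in Mko-3 than in Huh-7 (log2 fold change -1.82, SE 0.15, adjusted p = 5.2e-08), rose in Ako-3 (log2 fold change 0.62, SE 0.08, adjusted p = 1.9e-06) and was 5.43-fold lower in Mko-3 than in Ako-3 (log2 fold change -2.44, SE 0.12, adjusted p = 2.3e-12). The annotated spans of the pair overlap by 6924 bp on opposite strands, so without strand information part of their reads cannot be told apart. The other tested genes within 5 Mb had a median of -0.16 in Mko-3 for either gene.

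The pair is divergent, with start sites that lie 132 bp apart in RefSeq. Neither TCACNCCAC nor CCAAT was found in the windows of this pair.

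ABCG1, which exports sterols to HDL, measured 3.80, 2.40 and 3.95 FPKM in Huh-7, 2.29, 2.11 and 2.21 in Ako-3 and 1.80, 1.29 and 1.57 in Mko-3. The groups did not overlap, but Huh-7 replicate 2 was close to the Ako-3 libraries. ABCG1 fell in Ako-3 (log2 fold change -0.63, SE 0.15, adjusted p = 0.0031) and in Mko-3 (log2 fold change -1.14, SE 0.18, adjusted p = 0.00015). The call in Ako-3 was lost with limma on log2(FPKM + 1) and log2(FPKM + 0.1), at adjusted p of 0.062 and 0.056.

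ABCA1, which lipidates apolipoprotein A-I and is, like ABCG1, a target of LXR, measured 6.91, 8.10 and 8.38 FPKM in Huh-7, 12.3, 11.9 and 11.8 in Ako-3 and 10.2, 10.4 and 9.16 in Mko-3. Both clones were above every Huh-7 library, and Ako-3 was highest. ABCA1 rose in Ako-3 (log2 fold change 0.62, SE 0.07, adjusted p = 6.9e-07) and in Mko-3 (log2 fold change 0.34, SE 0.08, adjusted p = 0.00084), the reverse of ABCG1, and its level was lower in Mko-3 than in Ako-3 (log2 fold change -0.28).

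**Figure D4:**
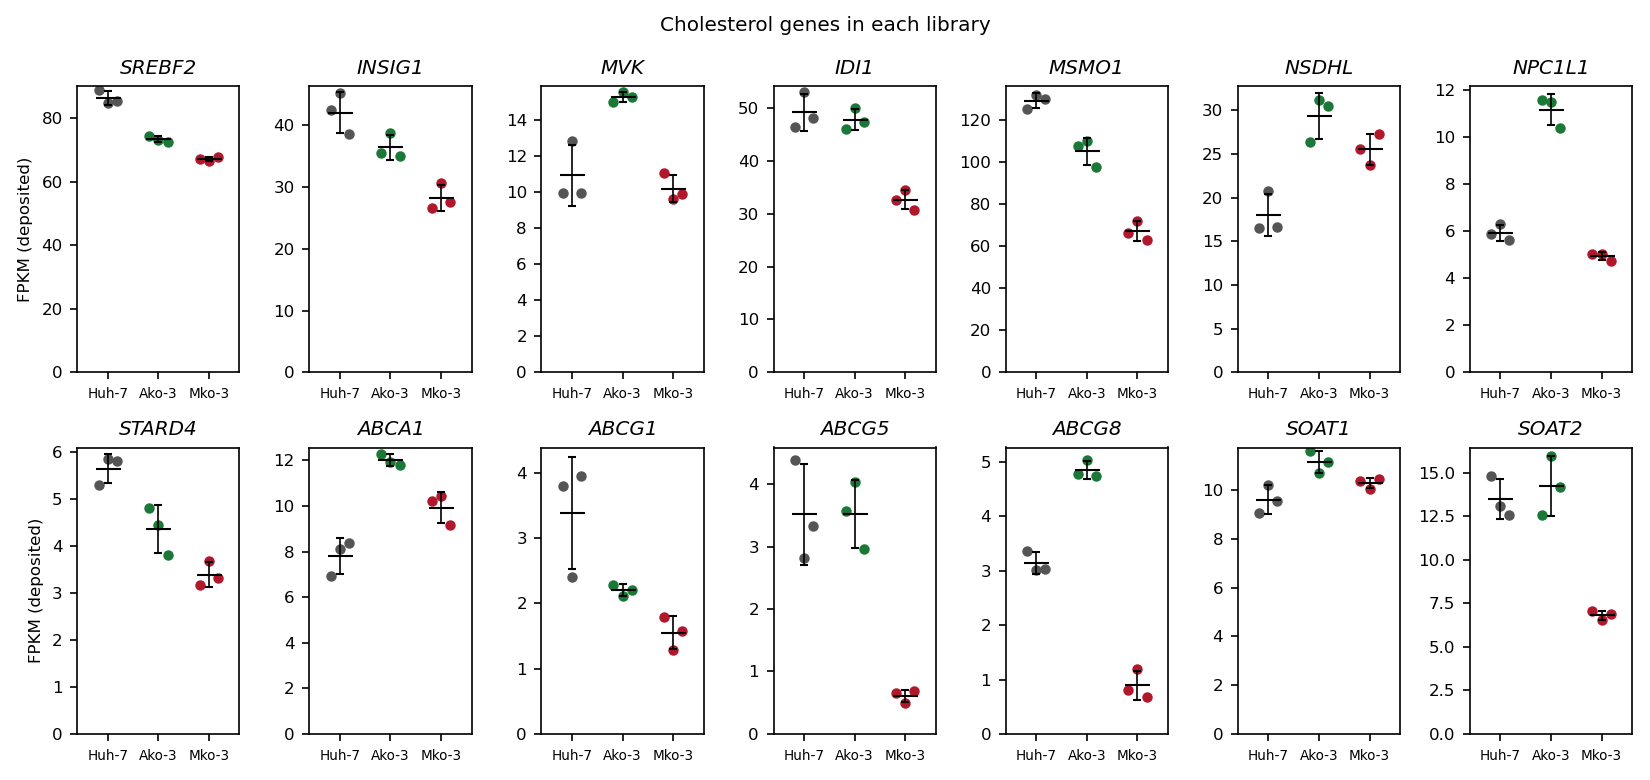
Deposited FPKM (vertical axes, each from 0) of the 14 members given in every library, with the libraries of Huh-7, Ako-3 and Mko-3 as points and the mean and SD of 3 libraries as black bars. The Mko-3 points of ABCG5, ABCG8 and SOAT2 lie below all points of the other groups.

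Esterification of cholesterol in the endoplasmic reticulum is carried out by SOAT1, found in most cells, and SOAT2, found in hepatocytes and enterocytes. SOAT2 measured 14.8, 13.1 and 12.6 FPKM in Huh-7, 12.5, 16.0 and 14.2 in Ako-3 and 7.06, 6.54 and 6.86 in Mko-3. The Mko-3 libraries were below all others, and the Ako-3 range enclosed that of Huh-7. SOAT2 was 2.00-fold lower in Mko-3 than in Huh-7, at a log2 fold change of -0.997 with an adjusted p of 4.4e-08, just short of the fold threshold. It passed that threshold without Huh-7 replicate 2 or 3 or without Mko-3 replicate 1. It also passed under upper-quartile factors and with at least 10 counts in every library. Against Ako-3, SOAT2 missed the fold threshold without Ako-3 replicate 2 (-0.98) and with limma on log2(FPKM + 1). MSMO1 passed it in Mko-3 against Huh-7 without Mko-3 replicate 2 (-1.005) and under upper-quartile factors. SOAT2 was 2.10-fold lower in Mko-3 than in Ako-3 (log2 fold change -1.07, SE 0.09, adjusted p = 1.2e-16). SOAT1 measured 9.04, 10.2 and 9.54 FPKM in Huh-7, 11.6, 10.7 and 11.1 in Ako-3 and 10.4, 10.1 and 10.4 in Mko-3. The Ako-3 libraries were the highest. SOAT1 rose in Ako-3 (log2 fold change 0.21, SE 0.07, adjusted p = 0.018) and stood at 0.09 (log2 fold change) in Mko-3.

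Other genes around the pathway, 39 by name and 35 tested, were counted in 5 lists, and STARD5, GRAMD1B, CD36 and CUBN did not pass the filter. In Ako-3, 9 rose and 12 fell, and in Mko-3 also 9 rose and 12 fell, with median log2 fold changes of -0.07 and 0.001. Those counts are 25.7% higher and 34.3% lower, beside 25.5% and 24.4% of all tested genes in Ako-3 and 26.9% and 27.1% in Mko-3. Between the clones 12 were higher and 10 lower in Mko-3, or 34.3% and 28.6%, beside 21.1% and 20.6% of all tested genes. None passed both thresholds.

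Among 9 genes that process SREBPs or degrade sterol-regulated proteins, 3 rose and 3 fell in Ako-3, and 3 rose and 4 fell in Mko-3, or 33.3% each way and 33.3% and 44.4%, beside those shares of all genes. The site-1 protease MBTPS1 rose in both clones (log2 fold change 0.34 and 0.57), and the site-2 protease MBTPS2 fell in both (log2 fold change -0.82 and -0.26). UFD1 had the highest log2 fold change of the list in Ako-3 (0.85) and in Mko-3 (0.99), short of the fold threshold. Its mean FPKM was 5.41 in Huh-7, 9.77 in Ako-3 and 10.8 in Mko-3. SREBF1, the SREBP that favours fatty acid genes, rose in Ako-3 (log2 fold change 0.28) and fell in Mko-3 (-0.20). Of the 4 genes of the LXR pathway, the receptor gene NR1H3 stood at 0.18 (log2 fold change) in Ako-3, short of the threshold, and fell in Mko-3 (-0.32). NR1H2, the gene of the other LXR, rose in Ako-3 (log2 fold change 0.38), and LPCAT3, an LXR target that remodels phospholipids, rose in both (log2 fold change 0.53 and 0.52).

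Of 9 tested genes of sterol transport and ester hydrolysis, 5 fell and 1 rose in Ako-3, and 4 fell and none rose in Mko-3, so that 55.6% and 44.4% were lower, beside 24.4% and 27.1% of all tested genes. The lysosomal lipase LIPA fell in both clones, with log2 fold changes of -0.63 in Ako-3 and -0.80 in Mko-3. The sterol transporter GRAMD1A (-0.70 and -0.95) and the ester hydrolase NCEH1 (-0.60 and -0.48) fell in both as well. Of 9 genes on isoprenoid branches, 2 rose and 2 fell in Ako-3, and 4 rose and 3 fell in Mko-3. The Ako-3 counts are 22.2% each way, near the 25.5% and 24.4% of all tested genes. Those of Mko-3 are 44.4% higher and 33.3% lower, beside 26.9% and 27.1%. The prenyltransferase subunit gene PGGT1B fell in both, with log2 fold changes of -0.94 and -0.64, and those of PDSS1, for the side chain of coenzyme Q, which rose in both, were 0.59 and 0.54. Of 4 tested lipoprotein receptors and adaptors, LRP8 and VLDLR, a pair of related receptors, fell in Ako-3 (log2 fold change -0.63 and -0.49) and were higher in Mko-3 than in Ako-3 (0.92 and 0.71). The genes named from these lists were chosen after their values were seen.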

How the data were processed

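RNA of 9 libraries, 3 each of Huh-7, Ako-3 and Mko-3 cells, was compared. The reads were aligned to hg38 with HISAT2 2.0.5 and assigned with featureCounts 1.5.0-p3, per the submitters' processing notes, and the authors deposited raw counts per gene for 58735 genes. The authors also deposited FPKM, the counts scaled by gene length and library size. The library preparation did not keep strand. The thresholds, 1 on the log2 scale in either direction and an adjusted p of 0.05, are those of the study.

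Counts were tested with edgeR 4.0.16 in R 4.3.3 (TMM factors, filterByExpr with its count minimum set to 10, and the robust version of the quasi-likelihood F test), fitting the 6 libraries of each comparison by themselves, with Benjamini-Hochberg adjustment over all tested genes. The SE is the log2 fold change over the square root of F. FPKM served for levels. DESeq2 1.42.0, limma 3.58.1 on log2 FPKM, other scaling factors and filters, a fit of all libraries, a replicate block, leaving out mitochondrial genes and leaving out each library were alternatives. On simulated data for Mko-3 against Huh-7, with 15530 genes tested, 89.9% of the genes changed by 1 on the log2 scale and 74.2% of those changed by 0.5 were recovered. Only 99 and 97 genes were changed by these amounts, and all genes shared 1 level of noise. The real libraries differ in both, so these shares do not give the share of real changes found. The p-values measure the spread between these libraries, whose separate culture the labels do not describe. Replicate libraries differed by more than sampling noise, so none was counted as a duplicate. Between pairs of replicates the chi-square per gene was 6.93 to 8.88 in Huh-7, 3.12 to 3.45 in Ako-3 and 2.43 to 2.84 in Mko-3. The counts of calls against Huh-7 and between the clones thus rest on unequal spread between libraries.

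All 35 members are named. Values in every library are given for members past both thresholds and, in each of the 6 role groups, for the member with the smallest p in each comparison, 14 in all. The members and lists were chosen with earlier results of these data known. Some genes of the pathway are not reported here. The low-count members have wider errors at this depth.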

Additional observations from a re-analysis of the deposited data

How the results depend on the processing

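Of 560 values of single members under the alternatives in each comparison, 496 kept direction and side of the threshold in Ako-3 against Huh-7, 534 in Mko-3 against Huh-7 and 532 in Mko-3 against Ako-3. Under upper-quartile factors, which moved the median of all genes to -0.06 in Ako-3 and -0.08 in Mko-3, 3 members rose in Mko-3 and the enzyme median was -0.35. The counts of members that rose against Ako-3 were 0 with limma on log2(FPKM + 1) and 0 with log2(FPKM + 0.1). There INSIG2 missed the threshold, at log2 fold changes of 0.21 and 0.22 and limma adjusted p of 0.11 and 0.098. With either limma setting 8 members rose and 5 fell in Ako-3, 5 rose and 20 fell in Mko-3, where FDFT1 lost its call, and 24 fell against Ako-3.

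The replicate numbers did not pair the samples (correlations of same-numbered deviations from -0.117 to 0.094). With a replicate block, 11 members rose and 7 fell in Ako-3, 5 rose and 22 fell in Mko-3, the added fall being SCARB1, and 1 rose and 28 fell in Mko-3 against Ako-3. The enzyme medians under the block were 0.03, -0.28 and -0.30.

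Leaving out 1 library at a time, 7 to 11 members rose and 6 to 9 fell in Ako-3, with an enzyme median of -0.01 to 0.08. In Mko-3, 3 to 5 rose and 19 to 22 fell, with a median of -0.29 to -0.21. Against Ako-3, 0 to 1 rose and 25 to 28 fell, with a median of -0.32 to -0.28.

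Reversals concerned values that had not passed. In Ako-3 under upper-quartile factors these were INSIG2 (-0.0383), HMGCS1 (-0.0444), LSS (-0.0249), DHCR7 (-0.0165) and NPC2 (-0.0322). ABCG5 in Ako-3 was 0.00485 with DESeq2, 0.0164 without a filter, 0.00245 with all 9 libraries, 0.00502 with the replicate block, 0.00958 with limma at a pseudocount of 1 and 0.0143 at 0.1. SCARB1 was 0.00433 without a filter and HMGCS1 -0.00501 with at least 10 counts in every library. In Mko-3 without a filter, ACAT2 was 0.00382 and NPC2 0.000523. With single libraries left out, the Ako-3 ranges that crossed 0 were INSIG2 -0.0316 to 0.11, HMGCS1 -0.0715 to 0.099, SCARB1 -0.0562 to 0.0159, ABCG5 -0.136 to 0.187, IDI1 -0.0853 to 0.0136, FDFT1 -0.0754 to 0.0324, NPC2 -0.0561 to 0.066, MVD -0.00205 to 0.181, LSS -0.0145 to 0.0644 and SOAT2 -0.012 to 0.164. Those of Mko-3 were SCAP -0.0636 to 0.0223, NPC2 -0.0962 to 0.011, ACAT2 -0.0732 to 0.0382 and MVK -0.172 to 0.0309, and that of Mko-3 against Ako-3 was PMVK -0.181 to 0.00351.

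Over all genes, both thresholds were passed by 1345, 1739 and 890 genes in the 3 comparisons in the order above. With at least 10 counts in every library these counts were 841, 1113 and 511, and with limma on log2(FPKM + 1) they were 347, 479 and 213.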
